A study of Mus musculus with 6 samples.

Results

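The accessibility of 8 genes of the smooth muscle contractile apparatus, Acta2, Tagln, Tagln2, Cnn2, Cald1, Lmod1, Mylk and Myl9, was followed at the level of chromatin in mouse fibroblasts. The regions described were all those of the ATAC-seq table with 1 of these gene symbols, together with regions without any gene symbol within 50 kb of the listed gene spans. This gave 81 regions of 52957, of which 11 carried a member's symbol and 70 lay nearby without a symbol. ATAC-seq reads out how readily the transposase Tn5 cuts into DNA, so that a region with more reads is more open. All libraries came from NIH3T3, mouse embryonic fibroblasts that grow without limit and have an irregular karyotype. Both groups carried a T3H48 hammerhead ribozyme, an RNA that can cut itself, inside intron 3 of Actg1 (cytoplasmic gamma-actin). In 3 libraries the ribozyme was active and in 3 it was inactive, and no unedited cells were used here. The knock-in was made to cut the Actg1 transcript before it matures, which was not measured in these data. The design text calls the cells stable lines, but whether libraries within a group were grown separately is not in the labels, so p-values measure only the spread among these 6 libraries, possibly a technical one. Ribozyme activity and the history of a line cannot be told apart in this design.

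In smooth muscle, actin filaments slide along myosin once myosin light chain kinase (Mylk) has phosphorylated the regulatory light chain (Myl9). Smooth muscle alpha-actin (Acta2) forms the thin filaments, leiomodin (Lmod1) starts new filaments, and transgelins, calponins and caldesmon bind along them. Many of these genes are controlled by serum response factor (Srf) with its partners of the myocardin family, of which the MRTFs are held back by unpolymerised actin. Fibroblasts carry several of these proteins in stress fibres and raise Acta2 and Tagln when they turn into myofibroblasts. ATAC-seq of cells in bulk does not separate a larger share of cells with an open region from a more open region in each cell.

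To show the DNA the promoter results refer to, the 250 bases before the start site are printed for the 3 of the 7 matched members in which a CArG box was found and for Lmod1, whose promoter rose 2.15-fold, as given by RefSeq on GRCm38.p6. Each CArG box, the binding sequence of Srf, is in capitals. Here a CArG box is CC and GG around 6 bases that are A or T, or an imperfect one in which 1 of those 6 is G or C. RefSeq entries were matched for 7 of the 8 members, all but Tagln. The deposited regions are on mm39, so the coordinates of these sequences cannot be set beside those of the regions.
Acta2 (chr19:34255374-34255623, minus strand): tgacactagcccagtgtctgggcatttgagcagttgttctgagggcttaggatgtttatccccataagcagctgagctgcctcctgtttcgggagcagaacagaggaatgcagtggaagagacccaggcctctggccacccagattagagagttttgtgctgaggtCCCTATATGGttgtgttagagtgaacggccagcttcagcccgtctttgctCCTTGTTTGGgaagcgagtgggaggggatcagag
Myl9 (chr2:156775214-156775463, plus strand): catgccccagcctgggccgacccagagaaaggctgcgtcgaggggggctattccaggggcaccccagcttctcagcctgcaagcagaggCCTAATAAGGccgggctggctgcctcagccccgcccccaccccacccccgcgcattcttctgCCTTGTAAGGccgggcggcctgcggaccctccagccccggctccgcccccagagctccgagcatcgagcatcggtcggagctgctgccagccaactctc
Cnn2 (chr10:79988350-79988599, plus strand): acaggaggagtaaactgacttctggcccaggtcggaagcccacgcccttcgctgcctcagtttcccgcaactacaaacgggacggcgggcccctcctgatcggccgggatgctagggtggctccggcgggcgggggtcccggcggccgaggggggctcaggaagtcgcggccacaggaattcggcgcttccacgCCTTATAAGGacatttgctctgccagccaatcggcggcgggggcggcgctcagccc
Lmod1 (chr1:135324563-135324812, plus strand): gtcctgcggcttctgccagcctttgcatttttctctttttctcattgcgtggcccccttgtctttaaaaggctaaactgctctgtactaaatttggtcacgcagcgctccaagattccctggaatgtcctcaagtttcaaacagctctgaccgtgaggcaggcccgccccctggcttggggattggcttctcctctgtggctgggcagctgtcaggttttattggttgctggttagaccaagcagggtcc

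The Acta2 sequence held 2 imperfect CArG boxes, at positions -84 and -34 from the start site. The Myl9 sequence held a perfect box at -161 and an imperfect one at -99, and the Cnn2 sequence held a perfect box at -56. No CArG box by this definition lay in the 250 bases of Lmod1, Tagln2 or either Cald1 entry. Over all 32851 promoter entries of that length, 1.47% held a perfect box and 7.24% an imperfect one, searched on both strands. The letters CATTCC, the MCAT element bound by TEAD factors, occurred on either strand before Acta2 (-146), Lmod1 (-130), Cald1 (-153) and at 2 places before Tagln2 (-118 and -80), against 12.6% of all entries. The RefSeq entry of Mylk starts 39751 bases inside its gene span and is not the start site at which the deposited promoter region lay, so it is not shown. The entry of Acta2 starts 212 bases and that of Myl9 56 bases inside the RefSeq span. A match is a description of letters and not a measured binding site.

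Libraries summed to 6433944 to 6548535 normalised reads, with reads before scaling estimated at 3710000 to 6840000 in active and 7330000 to 8960000 in inactive libraries. Low values of the active libraries therefore carry more counting error. Over all 51253 regions tested, 60.1% passed the threshold (limma, adjusted p under 0.05), with 30.9% higher and 29.2% lower in the active libraries. Among promoters, taken as regions within 1 kb of a start site, 22.4% were higher and 36.6% lower. Long stretches of chromosomes moved together, so each member is also given relative to its surroundings, as the median change of its 10 Mb window. DNA copy number was not measured, so copy number and accessibility cannot be told apart over such stretches. Of 13 fibroblast markers, 10 had regions, among them Col1a1, Col1a2, Fn1 and Vim, with a summed signal of 3869 to 4106 in active and 4679 to 4916 in inactive libraries. Of their 10 promoter regions, 8 fell and 1 rose, that of Col1a2 (0.57), in a window with a median of 1.02. Relative to the windows 6 were lower and 0 higher, beside 25.0% and 13.9% of all promoters. Of their 15 other regions 3 rose and 7 fell. Of 10 epithelial markers, 3 had regions (265 to 291 against 183 to 211), and of 10 blood and endothelial markers also 3 (202 to 217 against 119 to 143). Within the last group the Kdr promoter rose from 6.67 ± 2.08 to 79.0 ± 4.36 (log2 change 3.42, limma adjusted p = 2.26e-15), a Csf1r region rose (1.29), and a Ptprc region did not pass (-0.20). Among the epithelial markers the Krt8 promoter rose (0.78), as did a region of Cldn4 (1.44) and a region of Cldn3 (1.27). A second Krt8 region fell (-0.76). Relative to the windows these epithelial regions were called in the same directions. Epcam, Cdh1, Pecam1, Cdh5, Myod1 and Myog were among the markers that were searched for and gave no region to these sums. Of 10 skeletal and cardiac muscle markers, 1 had a region (23 to 33 against 30 to 35). The part of these markers in the results was not tested.

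The 8 genes did not move together. At their 9 promoter regions, 3 rose (Mylk, Lmod1 and Cald1), 3 fell (Acta2 and both Tagln regions) and 3 did not pass (Tagln2, Cnn2 and Myl9). Called were thus 6 of 9, beside 59.0% of all promoters. Relative to the windows 2 were higher (Mylk and Lmod1) and 2 lower (Cald1 and Tagln2), that is 4 of 9 in either direction, beside 13.9%, 25.0% and 38.9% of all promoters. The groups did not overlap at the same 6 promoter regions, against 61.3% of all promoters. Over all 78 regions tested, nearby ones included, 18 rose and 29 fell, the groups did not overlap at 51 (62.3% of all regions), and relative to the windows 15 were higher and 29 lower (51.0% of all regions in either direction). The median log2 fold change was -0.09 for the 9 promoter regions and -0.10 for all promoters. Fold changes are active against inactive on the scale log2(value + 1).

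**Figure D1:**
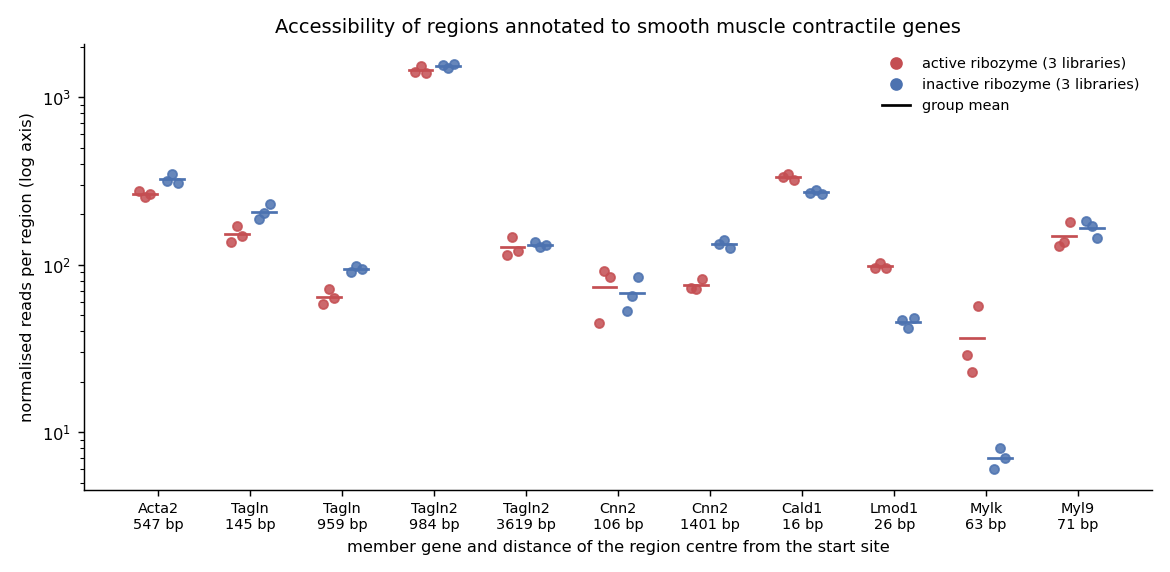
Normalised reads in each of the 6 libraries (points) with group means (lines), on a log axis, for the 11 regions annotated to the 8 genes, ordered by gene and by distance from the start site. Active libraries lie wholly above inactive ones at Cald1, Lmod1 and Mylk, and wholly below at Acta2, both Tagln promoter regions and the Cnn2 region 1401 bp from the start.

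Per kb of region and over all libraries, promoter accessibility was highest at Tagln2 (585 normalised reads per kb) and Cald1 (412). Cnn2 (230), the Tagln regions (222 and 213), Acta2 (181) and Myl9 (175) stood close to each other. Lmod1 (116) and Mylk (53.4) were the least accessible of the 8, and they were the genes whose promoters rose most.

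The promoter region of Acta2 on chromosome 19 (34231633 to 34233253 on mm39, as the table gives it) held 274, 254 and 264 normalised reads in active and 317, 346 and 306 in inactive libraries. Every active library was lower, with group means of 264 ± 10 and 323 ± 20.7 (SD, n = 3 each, as for all errors of means below). This was a log2 change of -0.29 ± 0.07 SE (limma adjusted p = 9.75e-04). Its window, from 30 to 40 Mb, had a median of -0.33 over 229 regions. Centred on the window within each library, the promoter stood at -0.01 (limma adjusted p = 0.900). The promoter and its surroundings were thus lower by about the same amount.

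Around Acta2, 7 regions without a symbol lay within 50 kb, of which 6 were tested, 3 fell and 0 rose. Among all regions without a symbol, 26.7% fell and 34.0% rose, and relative to their windows 24.2% were lower and 30.8% higher. A region inside the gene, 11330 bp from its start (34221424 to 34221897), held 33, 34 and 36 reads in active against 64, 66 and 61 in inactive libraries. It fell 1.85-fold (-0.87 ± 0.17 SE in log2, limma adjusted p = 2.39e-05), and it stayed lower than its surroundings at -0.60 (limma adjusted p = 0.00289). A region 9967 bp upstream of the gene (34242957 to 34243499) fell from 168 ± 16.3 to 109 ± 15.9, or -0.35 relative to its window (limma adjusted p = 0.00835). Relative to the window 2 of the 6 regions were thus lower, 2 were higher (34175508 at 0.38 and 34262057 at 0.63) and 2 did not pass. These and other nearby regions named beyond the strongest rise and fall of each gene were chosen after their values were seen. The region at 34262057 lies 425 bp from the start site of a gene without a symbol.

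Tagln encodes transgelin (SM22), an actin-binding protein used as an early smooth muscle marker. Its promoter region on chromosome 9 (45846807 to 45847614), 145 bp from the start site, held 136, 170 and 149 reads in active and 188, 204 and 229 in inactive libraries. A second region upstream (45848129 to 45848500), 959 bp from the start, held 58, 72 and 63 against 90, 98 and 94. All active libraries were lower in both, with log2 fold changes of -0.45 ± 0.10 SE (limma adjusted p = 1.33e-04) and -0.54 ± 0.14 SE (limma adjusted p = 6.46e-04). The window from 40 to 50 Mb was lower still, with a median of -0.64 over 246 regions. Relative to it the 2 regions stood at 0.15 and 0.05 and did not pass (adjusted p = 0.189 and 0.764 by limma). Relative to the regions within 1 Mb, a comparison chosen after seeing the data, the first was higher at 0.23 (limma adjusted p = 0.0426), and the second did not pass (0.13). Both neighbouring regions without a symbol fell, and neither passed relative to the window (-0.45 and -0.09). The first, starting at 45791288, lies 542 bp from the start site of a gene without a symbol. The regions of the neighbouring named genes Pcsk7 and Sidt2 also fell.

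Tagln2, the transgelin found in most cell types, had the most accessible promoter region of the 8 genes, 2557 bp wide on chromosome 1 (172327319 to 172329876). It held 1418, 1544 and 1386 reads in active and 1558, 1496 and 1573 in inactive libraries, and the groups overlapped. The log2 fold change of -0.09 ± 0.04 SE did not pass (limma adjusted p = 0.0517), in a window with a median of 0.02. Relative to that window it was called lower at -0.13 (limma adjusted p = 0.00401), and without active replicate 2 or inactive replicate 2 it was called at -0.14 and -0.11. Relative to the promoters within 5 Mb, a comparison chosen after seeing the data, it did not pass (-0.05, limma adjusted p = 0.262). A second Tagln2 region 3619 bp from the start (172331069 to 172331396) held 114, 147 and 121 against 136, 127 and 131 and did not pass either.

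Downstream of Tagln2, accessibility rose. Of 7 regions without a symbol, 5 rose, 1 fell and 1 did not pass, and relative to the window the counts were the same. Of the 5, 4 lay 23106 to 41967 bp downstream of the gene. The strongest (172373562 to 172374100) held 187, 159 and 194 reads in active against 74, 78 and 80 in inactive libraries, a 2.33-fold rise (1.2 ± 0.11 SE in log2, limma adjusted p = 3.72e-12). Next to it, the regions starting at 172364741 and 172358053 rose 1.94-fold and 1.84-fold. Close by, the region at 172356350 to 172356545 was called lower (-0.38, limma adjusted p = 0.0258), a call that was lost when active replicate 3 (-0.34) was left out, or inactive replicate 2 (-0.38) or 3 (-0.31). Over the locus, promoter reads made up 65.4% to 68.9% of promoter and nearby reads in active and 76.6% to 77.2% in inactive libraries (exact permutation p = 0.1, the smallest that 3 against 3 allow). Named genes also lie there: of 3 regions of Cfap45 and Igsf9 within 50 kb, 2 rose and 1 fell.

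Cnn2 encodes calponin 2, an actin-binding protein of smooth muscle and non-muscle cells. Its promoter region on chromosome 10 (79824371 to 79824677) held 45, 92 and 84 reads in active and 53, 65 and 84 in inactive libraries. The groups overlapped widely (0.09 ± 0.21 SE in log2, limma adjusted p = 0.736). Active replicate 1 was the lowest of the 6, and without it the region was called higher at 0.40 (limma adjusted p = 0.0308). A further Cnn2 region 1401 bp inside the gene (79825637 to 79826001) fell. It held 73, 72 and 82 against 133, 140 and 126 reads, 1.76-fold less (-0.81 ± 0.12 SE in log2, limma adjusted p = 2.16e-07). Relative to its window, whose median was -0.20, it was still lower at -0.63 (limma adjusted p = 2.55e-05). This region lies just outside the limit of 1 kb used for promoters, whereas the Tagln2 region (984 bp) and the upstream Tagln region (959 bp) lie just inside it. Neither region without a symbol near Cnn2, 28006 and 36804 bp downstream, passed as measured, and the second was higher relative to the window (0.28, limma adjusted p = 0.000700). All 5 regions of the neighbouring named genes Abca7, Polr2e, Tmem259 and Wdr18 had negative fold changes, and 4 of them fell.

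**Figure D2:**
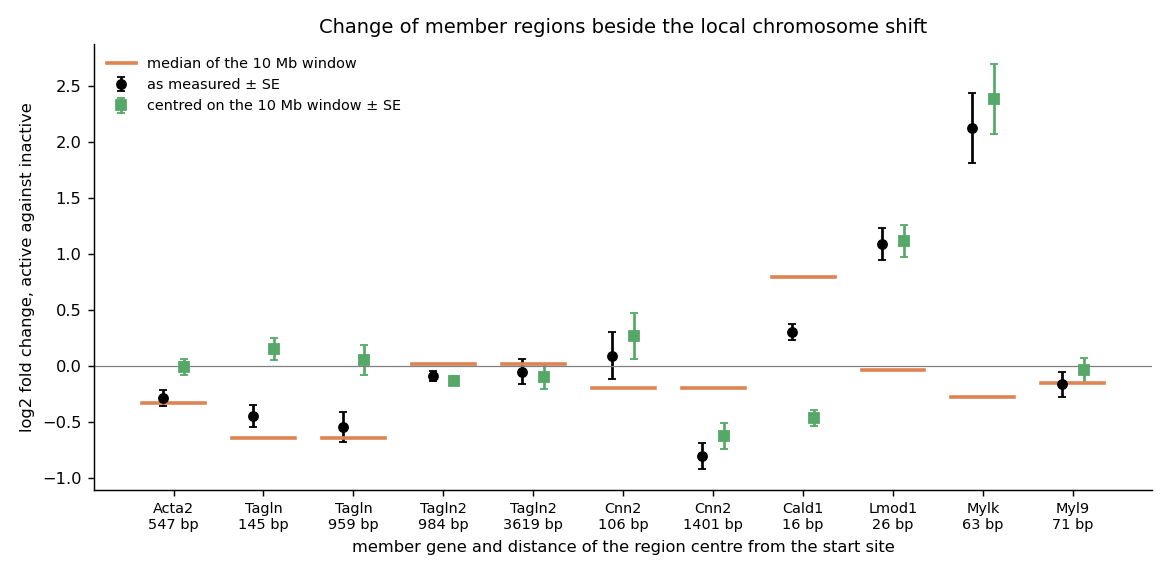
Log2 fold change of the 11 annotated regions with its standard error as measured (circles) and centred on the 10 Mb window (squares), beside the median of the window (bars). Acta2 and Tagln lie at or near their window median, Cald1 lies below a raised window, and Lmod1 and Mylk lie far above theirs.

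Cald1 encodes caldesmon, which binds actin and myosin and restrains their interaction. Its promoter on chromosome 6 (34575083 to 34575818) held 336, 346 and 322 reads in active and 269, 278 and 266 in inactive libraries. All active libraries were higher (0.30 ± 0.07 SE in log2, limma adjusted p = 3.89e-04). The surroundings, however, stood higher still: the window from 30 to 40 Mb had a median of 0.79 over 304 regions. Relative to the window the Cald1 promoter was lower at -0.47 ± 0.07 SE (limma adjusted p = 6.95e-07). The direction was the same relative to the 74 regions within 1 Mb (-0.42, limma adjusted p = 1.03e-05) and to the 63 promoters within 5 Mb (-0.40, limma adjusted p = 8.61e-06), comparisons chosen after seeing the data. Relative to the median of the whole chromosome (0.31) the difference was -0.01 and did not pass (limma adjusted p = 0.883).

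Of the 17 regions without a symbol in and around Cald1, 12 were lower relative to the window, 1 was higher and 4 did not pass. As measured, 7 rose and 3 fell. Upstream and as far as the region 43780 bp from the start, none rose. That region (34618992 to 34619439) fell from 47.7 ± 2.08 to 29.7 ± 3.51. Of the 7 that rose, 6 lay inside the gene, 110253 to 152362 bp from the start, and 1 lay downstream. RefSeq lists a second Cald1 start 110949 bases into the gene, and the region 110253 bp from the start rose from 32.3 ± 2.52 to 56.7 ± 10.3, at 0.01 relative to the window. The strongest rise was 151172 bp from the start (34726446 to 34726769), with 91, 78 and 82 reads in active against 12, 22 and 20 in inactive libraries. This 4.65-fold rise (2.20 ± 0.20 SE in log2, limma adjusted p = 2.58e-12) also exceeded the window, at 1.43 relative to it (limma adjusted p = 2.10e-07). The largest fall lay 171638 bp from the start (34746949 to 34747197), from 22, 15 and 18 reads in inactive to 5, 4 and 2 in active libraries (-2.09 ± 0.42 SE in log2, limma adjusted p = 3.99e-05).

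Lmod1 encodes leiomodin 1, an actin filament nucleator of smooth muscle. Its promoter on chromosome 1 (135252262 to 135252879) held 96, 102 and 96 reads in active and 47, 42 and 48 in inactive libraries. It rose 2.15-fold, with the active libraries wholly above and with little spread (1.09 ± 0.14 SE in log2, limma adjusted p = 1.88e-08). The surroundings did not move with it: the window from 130 to 140 Mb had a median of -0.04 over 347 regions, and relative to it the promoter stood at 1.12 (limma adjusted p = 2.11e-08). Of all promoters tested, 96.3% had a lower fold change. The call and its direction held under all 18 alternatives run for this region.

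Inside Lmod1, 2 regions without a symbol rose and 1 fell, and none of the 5 regions downstream passed. The region 34410 bp from the start (135286741 to 135287169) rose from 24.0 ± 7.55 to 57.0 ± 5.57, a log2 change of 1.25 ± 0.21 SE (limma adjusted p = 1.72e-06). The call was lost with libraries thinned to equal depth (1.55, limma adjusted p = 0.0702). Near the end of the gene, a strong region (135294679 to 135295248) rose from 380 ± 26.0 to 431 ± 19.5 (0.18 ± 0.07 SE in log2, limma adjusted p = 0.0168). The region 22910 bp from the start (135274744 to 135276166) fell from 153 ± 10.6 to 121 ± 6.11 (-0.34 ± 0.10 SE in log2, limma adjusted p = 0.00521), a call that was also lost in thinned libraries (-0.26). Summed, nearby regions stood at 964 ± 18.5 against 924 ± 24.6. The promoter share of promoter and nearby reads was 8.91% to 9.74% in active and 4.48% to 4.87% in inactive libraries (exact permutation p = 0.1, the smallest possible).

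Mylk, the kinase gene, had the weakest promoter region of the 8 and the largest change. The region on chromosome 16 (34565440 to 34565846), 63 bp from the start site, held 29, 23 and 57 reads in active and 6, 8 and 7 in inactive libraries. The groups did not overlap, but active replicate 3 stood far above the other two. The rise was 5.19-fold in the group means (36.3 ± 18.1 against 7 ± 1), with a log2 change of 2.12 ± 0.32 SE (limma adjusted p = 2.43e-07). It ranged from 1.75 to 2.39 when single libraries were left out. Of all promoters tested, 98.8% had a lower fold change. Its window had a median of -0.28 over 303 regions, so that the promoter stood at 2.38 relative to it (limma adjusted p = 4.81e-08).

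The rest of the Mylk locus went the other way. Of 22 regions without a symbol, 20 were tested, 12 fell and 0 rose, and relative to the window 8 were lower and 1 was higher. Within the gene span 10 of 17 tested regions fell. The region 94554 bp from the start (34659935 to 34660333) held 10, 7 and 7 reads in active against 52, 55 and 45 in inactive libraries, a 6.33-fold fall (-2.53 ± 0.26 SE in log2, limma adjusted p = 4.22e-11). Of all regions tested, 0.6% had a lower fold change than this one. Other falls inside the gene span were 2.10-fold at 34645816, 2.42-fold at 34756137, 3.28-fold at 34762387 and 2.17-fold at 34781250. These 4 were also lower relative to the window. Those at 34756137, 34762387 and 34781250 are annotated to other genes, which have an identifier but no symbol.

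Summed over the 22 regions, nearby accessibility was 830 ± 58.2 in active and 1205 ± 43.6 in inactive libraries. The promoter share of promoter and nearby reads was 2.52% to 6.47% in active and 0.516% to 0.641% in inactive libraries, with no overlap. On the log2 scale the promoter and the nearby sum changed differently by 2.66 (exact permutation p = 0.1, the smallest possible). The region nearest to the inner start that RefSeq lists, 39539 bp from the first, fell from 88 ± 4 to 59.0 ± 15.1 and did not pass relative to the window (-0.34, limma adjusted p = 0.0598). The region of the neighbouring gene Hacd2 did not pass.

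**Figure D3:**
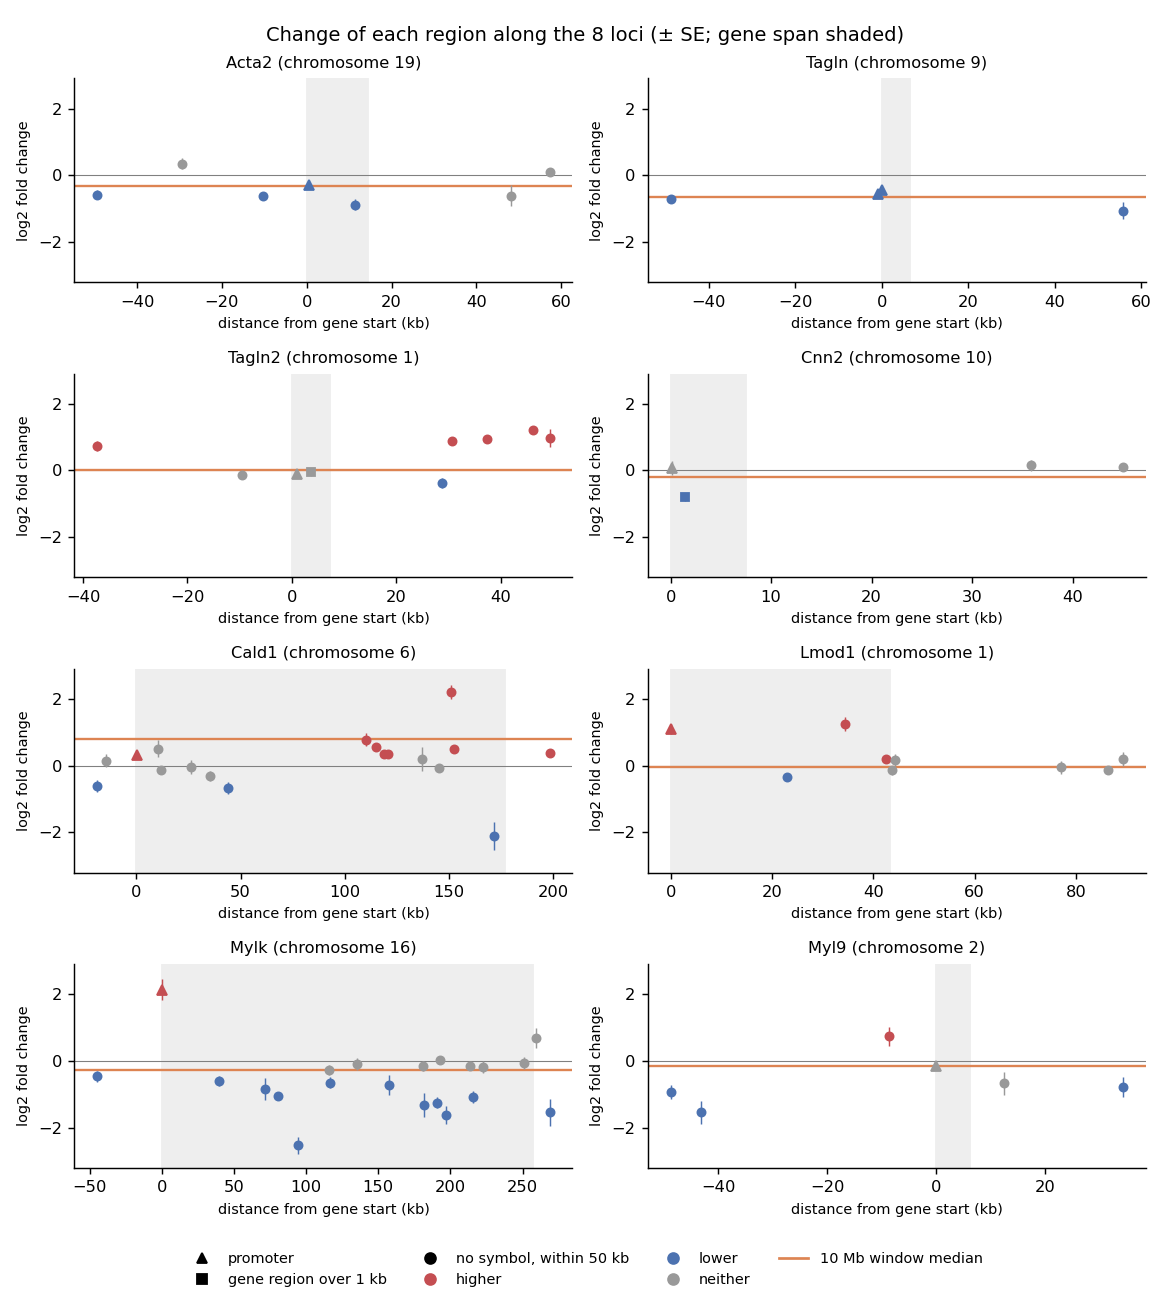
Log2 fold change with standard error of each tested region along the 8 loci, by distance from the gene start in kb in the direction of transcription. The shaded span is the gene, the horizontal bar the median of the 10 Mb window, triangles are promoters, squares other annotated regions, circles regions without a symbol, and colours give the call. At Mylk a raised promoter stands over lowered gene-body regions, and at Cald1 most regions lie below the raised window.

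Myl9 encodes the regulatory light chain that Mylk phosphorylates. Its promoter on chromosome 2 (156616819 to 156617718) held 130, 136 and 179 reads in active and 182, 170 and 145 in inactive libraries. The groups overlapped (-0.17 ± 0.11 SE in log2, limma adjusted p = 0.187), and the window stood at -0.15. Without active replicate 3, the highest of its group, the promoter was called lower at -0.31 (limma adjusted p = 0.0196). Of 5 regions without a symbol, 3 fell and 1 rose, all of low signal. The region 43042 bp upstream (156574097 to 156574298) fell from 24, 18 and 19 reads in inactive to 5, 7 and 7 in active libraries (-1.54 ± 0.35 SE in log2, limma adjusted p = 2.06e-04). The region 8515 bp upstream (156608545 to 156608825) was called higher at 0.73 (limma adjusted p = 0.0248), with overlapping groups of 33, 18 and 33 against 10, 20 and 20. That call was lost without active replicate 1 (0.59), active replicate 3 (0.59) or inactive replicate 1 (0.42), and also with quantile normalization (0.50).

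Over the 70 regions near the 8 genes without a symbol, 67 were tested and 27 did not pass. Of the 67, 15 rose and 25 fell, beside 34.0% and 26.7% of all regions without a symbol. With only regions of a mean of at least 50 tested, 11 rose and 10 fell. The groups did not overlap at 44 of the 67, against 62.7% of all regions without a symbol. The median log2 fold change was -0.14, and -0.30 relative to the window, beside 0.04 and 0.02 for all regions without a symbol. The other 3, near Mylk and Acta2, had means under 10. Some of the nearby regions are annotated to genes that have an identifier but no symbol. Of such regions, 135341774 (Lmod1), 34712380 (Cald1), 34778744 (Mylk), 34262057 (Acta2) and 45791288 (Tagln) lie 51, 149, 318, 425 and 542 bp from a start site. By the limit of 1 kb these are promoters of genes without a symbol, but they are counted here as nearby regions. Relative to the window 13 of the 67 were higher and 26 lower, beside 30.8% and 24.2% of all regions without a symbol. Of these 26, 12 belonged to Cald1 and 8 to Mylk. By position, 18 of 35 regions inside a gene span were lower relative to the window and 3 higher, upstream 5 of 12 were lower and 3 higher, and downstream 3 of 20 were lower and 7 higher. Of the 18, 9 lay in Cald1 and 7 in Mylk, and of the 7 higher ones downstream, 4 lay near Tagln2. Differences between these positions were not tested. Just inside the limit of 50 kb, the Tagln region 49230 bp away had a log2 fold change of -1.05 and the Acta2 region 49206 bp away one of -0.58. The nearest regions outside it were a Myl9 region 52872 bp away (-0.54), a Cnn2 region 53811 bp away (-0.57) and a Tagln2 region 55449 bp away (-0.95). For Lmod1 the nearest outside lay 97828 bp away, with 121 reads in active and 25.7 in inactive libraries.

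The summed signal of all regions of a locus was lower in the active libraries at Mylk, Tagln and Acta2 and higher at Cald1, Lmod1 and Tagln2. At Tagln the sums were 398 ± 36.6 and 604 ± 48.5 (log2 ratio -0.60), at Mylk 866 ± 56.4 and 1212 ± 44.5 (-0.49), and at Acta2 627 ± 9.17 and 790 ± 37.0 (-0.33). At Cald1 they were 1727 ± 77.6 and 1447 ± 19.3 (log2 ratio 0.25), at Lmod1 1062 ± 15.5 and 970 ± 27.7 (0.13), and at Tagln2 2297 ± 80.5 and 2135 ± 62.6 (0.10). For these 6 genes the exact permutation p was 0.1, the smallest possible. Cnn2 (-0.05, exact permutation p = 0.5) and Myl9 (-0.34, exact permutation p = 0.2) had overlapping libraries. With the window median subtracted, Tagln stood at 0.04, Acta2 at -0.0046, Mylk at -0.21, Cald1 at -0.54 and Cnn2 at 0.15, a change of sign for Tagln, Cald1 and Cnn2.

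**Figure D4:**
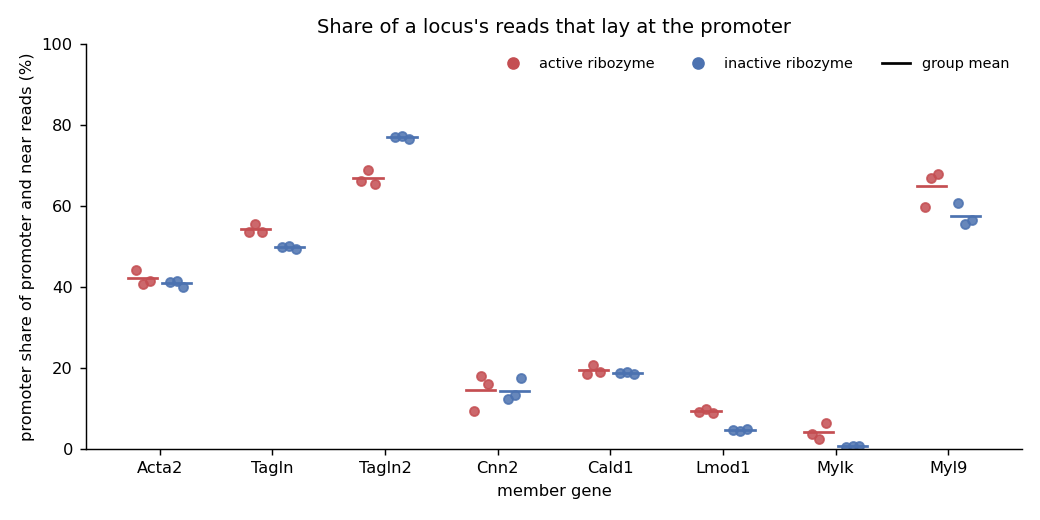
Share of a locus's reads, promoter and nearby regions without a symbol together, that lay at the promoter, in percent for each library (points) with group means (lines). The active libraries lie wholly above the inactive ones at Mylk, Lmod1 and Tagln and wholly below at Tagln2, and the groups overlap at Acta2, Cnn2, Cald1 and Myl9.

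The wider contractile programme was read from 4 lists of other genes, set beside the 22.4% higher and 36.6% lower among all promoters. For counts relative to the window, the shares among all promoters were 13.9% higher and 25.0% lower. Of 10 paralogues of the members, 3 had a promoter tested, of which 1 fell and 0 rose (median -0.06). The promoter of Myl12b, a non-muscle regulatory light chain, fell from 281 ± 8.89 to 229 ± 21.6 (-0.30 in log2, limma adjusted p = 0.00162), and it did not pass relative to its window (-0.15, limma adjusted p = 0.106). Cnn3 (-0.05) and Cnn1, the smooth muscle calponin (-0.06), did not pass. Cnn1 lies in a window of chromosome 9 with a median of -0.75, and relative to it its promoter was higher (0.65, limma adjusted p = 0.00226).

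Of 24 other contractile and thin filament genes, 15 had a promoter tested, of which 8 rose and 3 fell. Their median log2 fold change was 0.17, beside -0.10 for all promoters. Relative to the window 5 were higher and 1 lower, with a median of 0.08. Ldb3, a Z-disc protein also known as Cypher, rose most, from 71.7 ± 11 to 174 ± 13.9 (1.28 ± 0.12 SE in log2, limma adjusted p = 5.31e-12). Itga8, an integrin chain of smooth muscle and mesenchyme, rose by 0.43 (limma adjusted p = 0.00979), with overlapping groups. The largest falls were at Myl6, the essential light chain (-0.28), and the scaffold gene Pdlim5 (-0.24). Relative to the window Pdlim5 was still lower (-0.18, limma adjusted p = 0.00549), and Myl6 did not pass (-0.11, limma adjusted p = 0.135). Of 12 regions of these genes over 1 kb from a start site, 2 were higher and 8 lower, beside 30.9% and 29.2% of all regions. The lower ones did not lie at genes whose promoters rose. Smtn, Flna and Tpm4 had no promoter tested, and at Pdlim5 and Myl6 the promoter fell as well. The lower regions include 3 of Smtn (smoothelin), 1 of which fell from 49.0 ± 5.57 to 12.7 ± 2.08 (-1.88 in log2), and 2 of Flna (filamin A, -0.24 and -0.54). Relative to the window that Smtn region (-1.57) and both Flna regions (-0.18 and -0.48) were still lower. The remaining Smtn regions did not pass relative to it (0.01 and 0.06). Smtn, Flna and Tpm4 were chosen after their values were seen. The tropomyosin promoters of Tpm1 (-0.13) and Tpm2 (0.11) did not pass. A Tpm2 region 3524 bp from the start rose (0.75), also relative to the window (0.76, limma adjusted p = 0.00107), and that 1297 bp from it did not pass (0.02). The single Myh11 region, 4034 bp from the start of the smooth muscle myosin heavy chain gene, held 12.7 ± 2.08 and 18.0 ± 3.61 reads and did not pass.

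Among 16 names of transcription regulators, 12 had regions, with 13 promoter regions of 11 genes tested, of which 1 rose and 8 fell. Their median was -0.25, and relative to the window 0 were higher and 5 lower. The Srf promoter fell from 737 ± 11.7 to 620 ± 45.2 (-0.25 ± 0.05 SE in log2, limma adjusted p = 1.41e-04), and it was as low relative to its window (-0.27). A second Srf region 3066 bp from the start fell by 0.39 on the log2 scale. Mrtfa, the actin-regulated partner of Srf, rose at its promoter from 483 ± 25.1 to 565 ± 6.11 (0.23, limma adjusted p = 9.64e-04). The promoter did not pass relative to its window (-0.13). A second Mrtfa region 1732 bp from the start rose by 0.75, and it was also higher relative to the window (0.40, limma adjusted p = 0.00574). The largest falls were at Foxf1 (-1.48), a forkhead factor of visceral smooth muscle, from 33.3 to 11.3 reads, and Prrx1 (-0.76), a mesenchymal homeobox factor. The single region of Myocd, which encodes myocardin, held 15.7 ± 8.14 and 14.0 ± 5.57 reads and did not pass.

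Of 18 genes of the signalling that sets myosin phosphorylation, among them those of myosin phosphatase, 15 had a promoter tested, of which 4 rose and 4 fell (median -0.11), and relative to the window 0 were higher and 6 lower. The promoter of Rock2, a kinase gene on chromosome 12, rose (0.38), in a window with a median of 0.63, and relative to that window it was lower (-0.24, limma adjusted p = 1.22e-04). Rock1, its paralogue, fell by 0.51 and Ppp1r12a, the targeting subunit of myosin phosphatase, fell by 0.30 on the log2 scale. Relative to their windows both were lower (-0.17 and -0.58). Without inactive replicate 3, 2 of the 15 fell.

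**Figure D5:**
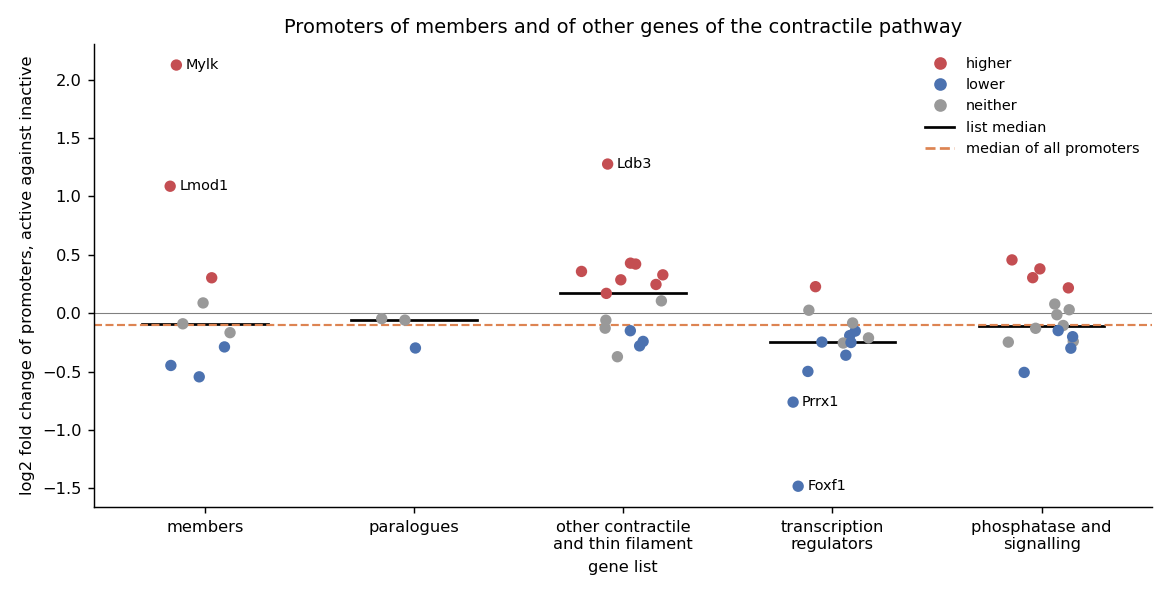
Log2 fold change of every tested promoter region of the 8 genes and of the 4 other lists, coloured by call, with the list median (solid line) and the median of all promoters (dashed line, -0.10). Mylk, Lmod1 and Ldb3 lie highest, and Foxf1 and Prrx1 lowest.

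Likeness to other promoters was measured as the Euclidean distance, over the 6 libraries, between log2 values centred on each promoter's mean. The nearest promoters of other named genes were Ptov1 (distance 0.05) and Dpp7 (0.06) for Acta2, and Sp1 (0.03) for Cald1. For Lmod1 they were Thsd7a (0.12) and Ndufa5 (0.14), and for Tagln2 they were Hook3 (0.03) and Ints8 (0.04). The nearest to Mylk, Ptpn18, lay at 0.51. Spread among libraries widens these distances, and Mylk held 29, 23 and 57 reads in active and 6, 8 and 7 in inactive libraries. How much of its distance came from that spread was not tested. The distances to the nearest promoters of Cnn2 (1700034J05Rik, 0.50) were as large. The likeness rests on 6 libraries in 2 groups and is a description.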

How the data were processed

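ATAC-seq libraries of 3 active and 3 inactive ribozyme knock-in samples were deposited as 1 table of 52957 regions. The deposited values are a score that the authors made from reads per region: reads divided by a size factor per library and rounded to whole numbers. The submitters' processing notes name Trimmomatic 0.39, STAR 2.7.11a, Picard 3.1.1, featureCounts, DESeq2 1.36.0 and the mm39 build. The peak caller, how regions were merged, and whether reads were shifted for Tn5: not given in the sources used here. Because the values are rounded and scaled, no count test was run. Size factors were estimated from the spacing of low values, which gave 3710000 to 8960000 reads per library. The precision of low values is limited by these depths, and in active libraries 1 and 2 a total of 10 and 26 whole numbers below 60 do not occur.

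Groups came from the knock-in label. Regions whose mean reached 10 (51253 of them) were tested with limma 3.58.1 (R 4.3.3) on log2(value + 1), with a trended, robust variance and Benjamini-Hochberg adjustment over all of them. A region counted as called at an adjusted p under 0.05, and fold changes understate the change of low regions. For values relative to the surroundings, each library's median deviation over the fixed 10 Mb window was subtracted and the test repeated. Such values can therefore differ a little, also in sign near 0, from the fold change less the printed window median. From the locus sums the printed window median itself was subtracted. Exact permutation tests were two-sided. Other steps used Python 3.11.15, numpy 2.4.6, pandas 2.3.3 and matplotlib 3.10.9. On simulated data with 50956 regions, 38 of 97 changes of 1.5-fold and 83 of 100 changes of 2-fold were recovered, with 4 false calls. The simulation used a dispersion of 0.001 between libraries, changed only these regions and moved no long stretches. In the data 60.1% of regions were called, so its rates need not hold there.

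The 8 genes, the lists and the markers were chosen with earlier results of these data known. Named were all promoter regions of the 8 genes, for each gene the called nearby region with the largest change in each direction, and in each list the 2 called promoters with the largest rise and fall, plus Srf, Myocd, Mrtfa, Cnn1, Myh11, Tpm1 and Tpm2. Some results that this rule names are not reported here. Alternatives changed the pseudocount, filter, scaling, variance model, centring, depth, distances and replicates, or used the replicate number as a block. Promoter sequences came from RefSeq (GRCm38.p6), and the sequences of the regions themselves were not used here.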

Additional observations from a re-analysis of the deposited data

How the results depend on the processing

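Among the 22 named regions of the 8 genes, no call and no direction changed with log2(value + 5), without a filter on low values or with the replicate block. The labels number the replicates in both groups alike, but same-numbered libraries did not deviate together: the correlations of their deviations were 0.001, -0.006 and -0.016, and 1 of 6 libraries correlated best with its own number. With the replicate block, 15749 regions were higher and 14858 lower in all, and 16 nearby regions rose and 25 fell. Centring on the surroundings changed most. The Cald1 promoter turned to -0.47 (10 Mb window), -0.51 (within 5 Mb), -0.014 (chromosome), -0.42 (within 1 Mb) and -0.40 (promoters within 5 Mb). In the same windows, leaving out the chromosome, the Tagln promoter turned to 0.15, 0.19, 0.23 and 0.23, and the upstream Tagln region to 0.053, 0.088, 0.13 and 0.14. The Acta2 promoter lost its call in all 5 and stood at 0.030 against promoters within 5 Mb. The centrings on 1 Mb and on promoters were chosen after seeing the data. Relative to the window, locus sums turned to 0.040 (Tagln), -0.54 (Cald1) and 0.15 (Cnn2). The Cnn2 promoter stood at -0.018 with quantile normalization, at -0.10 in thinned libraries, and at -0.10 to 0.40 when 1 library was left out. The second Tagln2 region reached 0.023 without active replicate 1, within a range of -0.16 to 0.023.

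With a mean of at least 50, which left 14 of the 22 named regions, 8402 regions rose and 9705 fell. Of the nearby regions, 11 then rose and 10 fell. Against promoters within 5 Mb, 9729 regions were lower. Annotated regions of the 8 genes called lower numbered 2, and promoters 1, both with chromosome centring and with promoter centring. With promoters limited to 500 bp, 1 fell. Within 20 kb, 9 nearby regions rose, and within 100 kb, 26 rose and 38 fell. For the paralogues, 1 was higher with centring on 10 Mb, 5 Mb or 1 Mb and 2 with promoter centring, while 0 were lower with centring on 10 Mb, the chromosome, 1 Mb or promoters. For the other contractile genes, 5 were higher without the variance trend and with centring on 10 Mb, 5 Mb or the chromosome, and 1 (10 Mb) or 0 (1 Mb, promoters) were lower. For the regulators, 0 were higher without the trend and with centring on 10 Mb, the chromosome or 1 Mb, and 4 (no trend), 5 (10 Mb), 3 (5 Mb and 1 Mb) or 2 (promoters) were lower. For the myosin phosphatase and signalling genes, 0 (10 Mb, 5 Mb, chromosome) or 1 (1 Mb, promoters) were higher, and 2 were lower with quantile normalization, without the trend, with promoter centring, in thinned libraries and without inactive replicate 3. The cause was not tested. Thinning the libraries to equal depth took the call from 3 of the 22 named regions, all with means under 160 reads.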
